A study of Mus musculus with 14 samples.

Results

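The 10 genes described here encode the core of polyamine metabolism: the biosynthetic enzymes Odc1, Amd1, Srm and Sms, the antizymes Oaz1 and Oaz2, the antizyme inhibitor Azin1, and the catabolic enzymes Sat1, Smox and Paox. They were chosen by gene symbol, and the TPM (transcript abundance corrected for length and given as a share of the library) of all entries with the same gene identifier was summed in each library. Each of the 10 symbols matched 1 identifier out of the 54446 listed. All 10 passed the filter on low values, a mean of at least 1 TPM after spike-in normalization, as did 18232 genes in all.

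Mouse embryonic stem (ES) cells of the E14 line were profiled by bulk RNA sequencing during treatment with INK128, an ATP-competitive mTOR inhibitor (mTORi) that brings ES cells into a dormant state resembling embryonic diapause. Wild-type cells were collected untreated (0 h) and after 24, 72 and 144 h of mTORi, and cells lacking TET1 and TET2, the enzymes that oxidize 5-methylcytosine (DKO), untreated and after 24 and 72 h, with 2 libraries in each of the 7 groups. All cells grew without feeders in medium with serum and LIF, and total RNA came from a fixed number of sorted cells, was spiked with ERCC RNAs (synthetic transcripts of known amount) and was depleted of ribosomal RNA. The DKO line goes back to 1 sorted cell after Cas9 cutting of Tet1 and Tet2, so a genotype difference cannot be told apart from a difference between clones.

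Polyamines are small cations that bind RNA and DNA and are needed for translation and proliferation. Ornithine decarboxylase (Odc1) makes putrescine, S-adenosylmethionine decarboxylase (Amd1) makes the aminopropyl donor, and spermidine synthase (Srm) and spermine synthase (Sms) use that donor to build spermidine and then spermine. Antizymes bind ornithine decarboxylase and deliver it to the proteasome, antizyme inhibitor is an inactive decarboxylase homolog that captures antizyme, and acetylation by Sat1 followed by oxidation by Paox, or direct oxidation of spermine by Smox, runs the pathway backwards. Odc1 is a classical target of MYC, and the mTOR pathway promotes polyamine synthesis in growing cells.

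Each library's deposited TPM summed to 1000000 over all genes, so that scale holds shares of the transcriptome. On the second scale the TPM were multiplied by 1 spike-in factor per library. If the spike-in RNAs were added in proportion to the cells collected, this scale holds amounts per cell. The study does not say at which step they were added, and libraries were made from a fixed mass of total RNA. The factors were 2.11 in both untreated wild-type libraries, 1.43 to 1.85 at 24 h, 1.49 to 1.65 at 72 h and 1.0 to 1.07 at 144 h, and in DKO cells 2.38 to 2.81, 1.36 to 2.24 and 1.73 to 2.53 at 0, 24 and 72 h. The 6 ES cell markers (Pou5f1, Sox2, Nanog, Zfp42, Esrrb and Klf4) summed to between 2190 and 2810 TPM in every library. The 4 primitive endoderm markers (Gata4, Gata6, Sox17 and Foxa2) summed to 47.3 to 74.9 TPM in wild-type cells at 24 h, against 5.75 to 13.2 TPM at 0 h, and reached at most 29.8 TPM in the DKO libraries. Their part in the 24 h results was not tested. The fibroblast, trophectoderm, neuroectoderm and mesendoderm lists summed to at most 17.7 TPM, with Col3a1 listed at 0 in both wild-type libraries at 24 h and Elf5 in both DKO libraries at 72 h. Tet2 stood at 15.9 to 22.2 TPM in the 6 DKO libraries and 96.0 to 143 TPM in the 8 wild-type libraries, and Tet1 at 147 to 248 and 191 to 349 TPM. Whole-gene TPM does not show whether an edited transcript still encodes protein.

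In untreated wild-type cells the members spanned about 2 orders of magnitude, measured as deposited TPM. Odc1 was the most abundant, at 573 and 615 TPM, above 98.9% of the genes tested. Oaz1 followed at 303 and 387 TPM and Srm at 255 and 298 TPM, and the libraries of these 3 genes did not overlap. Sms (111 and 142 TPM) and Amd1 (106 and 132 TPM) overlapped and did not differ beyond their spread. Below them came Azin1 (59.9 and 70.8 TPM), Oaz2 (55.6 and 58.2 TPM) and Sat1 (25.3 and 29.6 TPM). The oxidases were the lowest, with Smox at 5.55 and 6.72 TPM and Paox at 5.01 and 5.02 TPM.

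**Figure D1:**
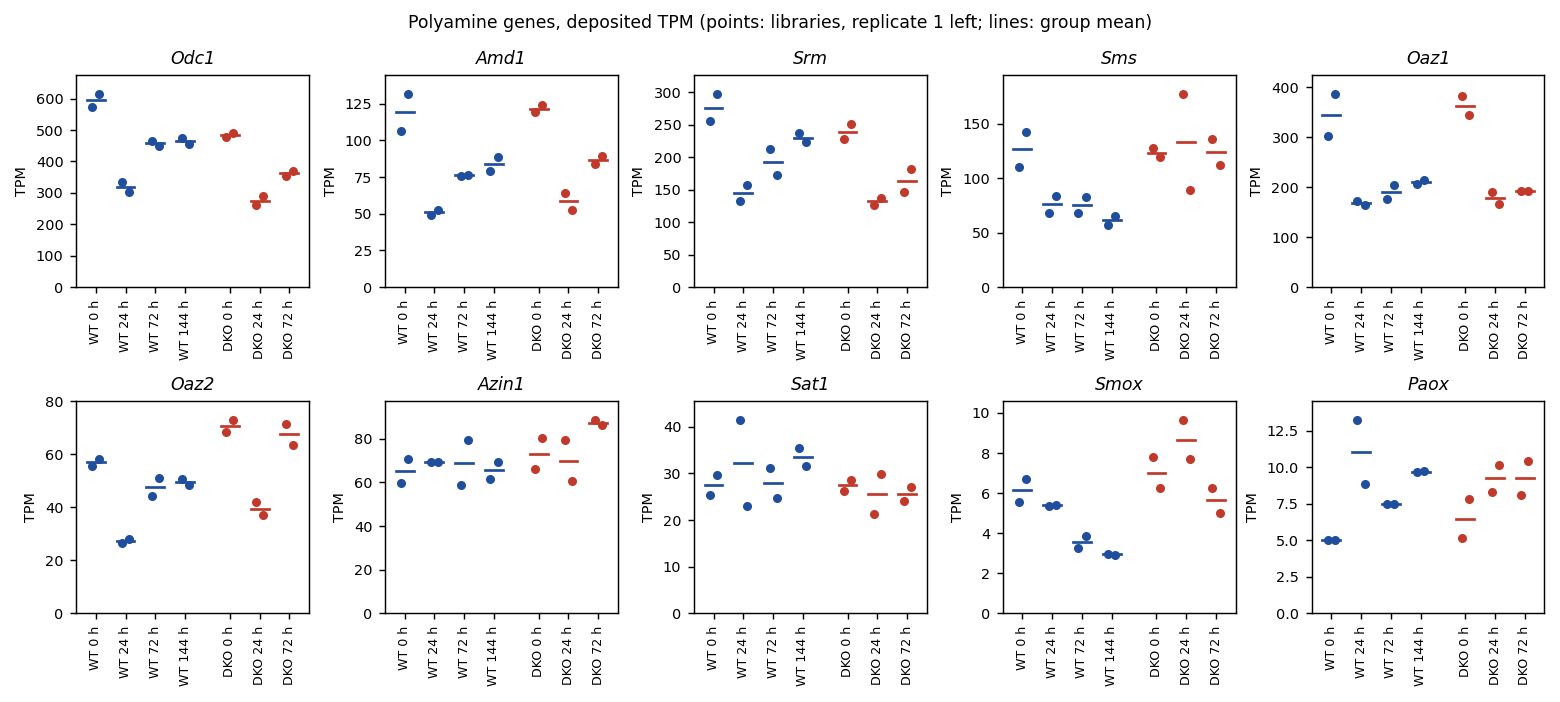
Deposited TPM of the 10 genes (y axis, linear from 0) in the 14 libraries by genotype and hours of mTORi (x axis, blue wild type, red DKO); points are libraries and lines the mean of 2. Odc1, Amd1, Srm, Oaz1 and Oaz2 sit lowest at 24 h in both genotypes, Sms and Smox sit lowest at 144 h in wild type, and Azin1 and Sat1 have no called change.

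The first question was which of these genes responded within a day of mTOR inhibition in wild-type cells. Amd1, Oaz2, Oaz1, Srm and Odc1 fell, by 1.58, 1.41, 1.39, 1.30 and 1.27 on the log2 scale of spike-in normalized TPM, while Azin1 (−0.28), Sat1 (−0.19), Smox (−0.50), Sms (−1.10) and Paox (0.69) did not pass the test. Thus 5 of the 10 were called lower (adjusted p from 0.0035 to 0.0074, limma with Benjamini-Hochberg adjustment over all genes), where 8.73% of all genes tested were called lower. The median of the 10 was −1.18 and that of all genes −0.33. In bulk RNA, a loss of RNA per cell and a loss of cells of one kind cannot be told apart. For fits with 1 library left out, here and below, the share of all genes called was not computed. As shares of the transcriptome (deposited TPM) these same 5 genes were called lower, against 14.1% of all genes, and their call held with any 1 of the 14 libraries left out. On the spike-in scale 0 of the 10 were called without the second wild-type library at 0 h or without the first at 24 h, with a smallest adjusted p of 0.058 in each case. With the replicate number as a block within each genotype, Sms joined them (adjusted p = 0.0037) to make 6 against 25.7% of all genes, and Paox was called higher (adjusted p = 0.032) where 4.48% of all genes were.

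At 72 h fewer members passed the test. Oaz1 fell by 1.28, Amd1 by 1.06 and Srm by 0.95 on the log2 scale of spike-in normalized TPM, and Odc1 (−0.80, adjusted p = 0.067), Sms (−1.16, 0.076) and Smox (−1.09, 0.076) missed the threshold in limma. The 3 calls compare with 7.6% of all genes called lower, and the median of the members was −0.88 against −0.33 for all genes. On deposited TPM Odc1, Amd1, Srm, Oaz1 and Smox were called lower, against 11.4% of all genes. With the replicate block within each genotype 7 members were called lower (Oaz1, Amd1, Smox, Sms, Srm, Odc1 and Oaz2, adjusted p from 0.00033 to 0.028), where 25.4% of all genes were. The calls at 72 h rested on single libraries: on the spike-in scale 0 remained without the second library at 0 h or either library at 72 h, 1 without the first library at 0 h or either wild-type library at 144 h, and 6 were called without either DKO library at 24 h. On deposited TPM 2 of the 5 remained without the second library at 0 h and 3 without the second at 72 h.

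By 144 h every member except Paox was called lower on the spike-in scale. The falls ran from 0.72 (Sat1, adjusted p = 0.042) to 2.05 (Sms, adjusted p = 0.00082) on the log2 scale of spike-in normalized TPM in limma. That makes 9 of 10 called lower, but 50.5% of all genes were called lower in the same comparison, and the medians were −1.33 and −0.83. The replicate block kept 9 calls, with 66.3% of all genes. On deposited TPM, where the median of all genes was 0.05, the members called lower were Sms (−1.02), Smox (−0.85), Oaz1 (−0.70), Amd1 (−0.50) and Odc1 (−0.35), against 11.7% of all genes, and Paox was called higher (0.83) where 15.6% of all genes were. Those 5 lower calls dropped to 2 (Oaz1 and Smox) without the second library at 0 h or the first at 144 h, and to 3 without the second at 144 h. Azin1 (0.00) and Sat1 (0.28) were not called as shares, and were called lower on the spike-in scale alone.

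**Figure D2:**
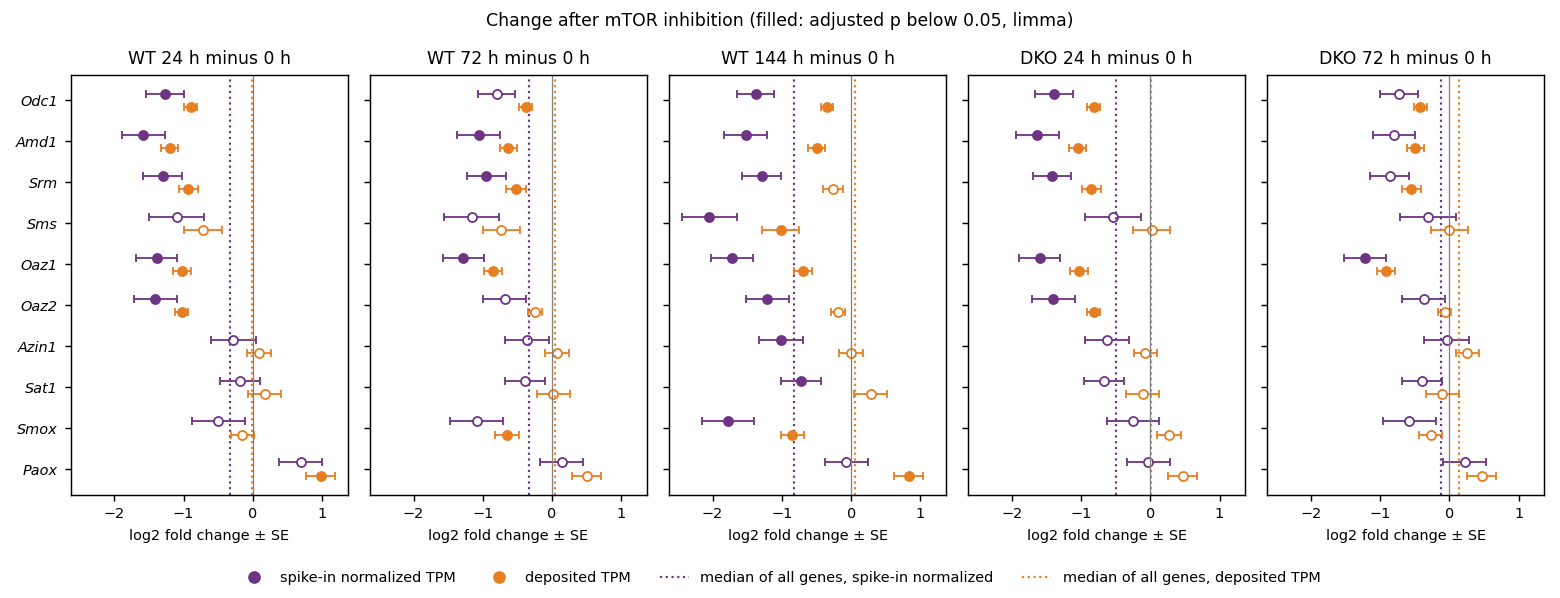
Log2 fold change against 0 h of the same genotype (x axis, ± SE from limma) for each gene (y axis), on spike-in normalized TPM (purple) and deposited TPM (orange); filled points have an adjusted p below 0.05 and dotted lines give the median of all 18232 genes. At 24 h the same 5 genes are filled on both scales in both genotypes, and at 144 h the purple points lie left of the orange ones by about the distance between the dotted lines.

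Of the biosynthetic enzymes Odc1, Amd1 and Srm fell at 24 h on both scales, and on these scales Sms first passed at 144 h without the block. With each library centred on its median Sms was called lower at 24 and 72 h as well. Odc1, which makes putrescine from ornithine (chr12:17544794-17551505, plus strand, here and below on mm10), measured 573 and 615 TPM in untreated wild-type cells, 334 and 302 at 24 h, 466 and 449 at 72 h, then 475 and 457 at 144 h (deposited TPM). Both libraries at 24 h were the lowest of the 8, and those at 72 and 144 h lay between them and the untreated ones. Its mean at 24 h was 53.5% of that at 0 h, and 78.4% at 144 h. After spike-in normalization Odc1 went from 1210 and 1299 to 479 and 559 at 24 h, 770 and 669 at 72 h, then 509 and 457 at 144 h. On that scale the rise after 24 h did not extend to 144 h.

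Amd1, whose product supplies the aminopropyl groups (chr10:40287458-40302186, minus strand), had 106 and 132 TPM at 0 h, 49.0 and 52.9 at 24 h, 76.0 and 76.3 at 72 h, then 79.0 and 88.6 at 144 h in wild type. The 24 h mean of 42.8% of the untreated mean was the lowest of all 10 genes at that time. Amd1 has a copy on another locus, Amd2, whose transcript is 99.7% identical over 3198 aligned bases, so reads of the 2 genes can be assigned to either. Amd2 was listed at 19.3 and 27.4 TPM at 0 h and 7.98 and 9.65 at 24 h, and the sum of both genes fell by 1.61 on the log2 scale at 24 h (adjusted p = 0.0034, limma), compared with 1.58 for Amd1 alone.

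Srm, which makes spermidine (chr4:148591503-148594993, plus strand), went from 255 and 298 TPM to 132 and 158 at 24 h, 213 and 173 at 72 h, then 237 and 223 at 144 h in wild type. Both 144 h libraries lay above both 24 h libraries and below the untreated ones. On deposited TPM its change at 144 h was −0.26 ± 0.14 (SE) and was not called (adjusted p = 0.21, limma), against −1.29 ± 0.28 after spike-in normalization (adjusted p = 0.0017).

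Sms, which makes spermine (chrX:157443855-157492287, minus strand), took another course. Its wild-type values were 111 and 142 TPM at 0 h, 68.5 and 83.8 at 24 h, 68.5 and 83.1 at 72 h, then 57.3 and 65.4 at 144 h, the lowest pair of the series. The 144 h mean was 48.5% of the untreated mean on deposited TPM and 23.7% after spike-in normalization, at percentile 2.81 of all genes by log2 fold change. The ratio of Sms to Srm within a library, which no library factor touches, was 0.434 and 0.478 at 0 h, 0.519 and 0.531 at 24 h, 0.322 and 0.481 at 72 h, then 0.241 and 0.293 at 144 h. The pair at 144 h lay below those of all other groups. A copy, Sms-ps, is identical to Sms over 1101 bases and was listed at 17.6 and 24.4 TPM at 0 h. With the 2 summed, the fall at 144 h was 2.08 (adjusted p = 0.00083, limma).

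**Figure D3:**
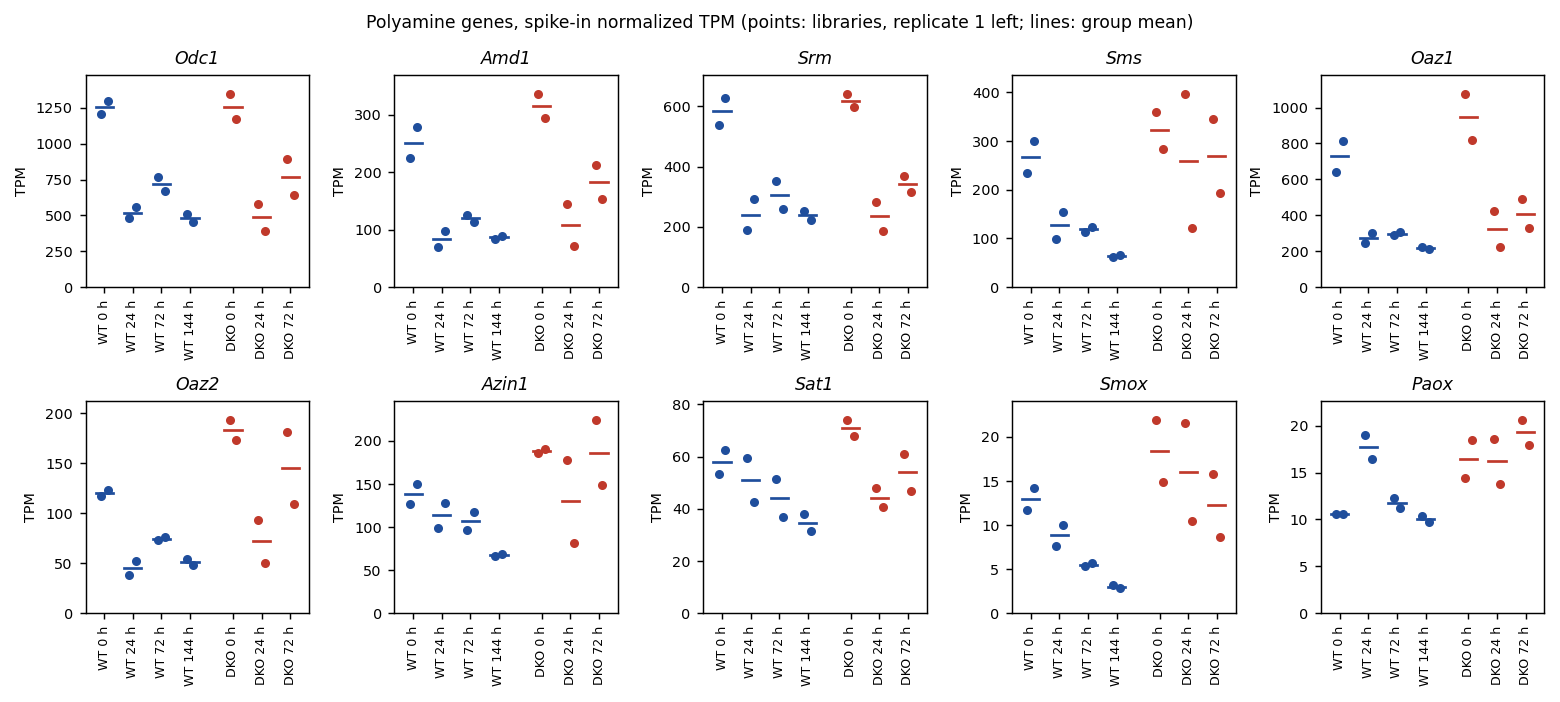
Spike-in normalized TPM of the 10 genes (y axis, linear from 0) in the 14 libraries by genotype and hours of mTORi (x axis, blue wild type, red DKO); points are libraries and lines the mean of 2. In wild type, 9 of the genes are below their untreated libraries at 144 h by a called difference, and the DKO pair at 24 h is widely spread for Sms, at 397 and 121.

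Stretches upstream of these genes are shown because the members that fell at 24 h fell together. RefSeq promoters on GRCm38.p6 were found for 8 of the 10 genes, with 10 start sites in all, and none for Srm and Azin1. The 250 bases before the start are printed for Odc1, Amd1, Oaz1 and Sms. Odc1, Amd1 and Oaz1 were called lower at 24 h in both genotypes, and their RefSeq starts lie 79, 2 and 0 bases from the gene starts in the files. Sms was the one member with an E-box (CACGTG, a site that MYC can bind) in a window. Sms has 2 RefSeq starts, and the window printed is that of the start at the gene start in the files. The other, 919 bases away, had a GC content of 75.2%, 4 GC boxes and no E-box or CCAAT box. Capitals mark the E-box, the GC box (GGGCGG or CCGCCC), the CCAAT box (CCAAT or ATTGG) and the TATA box (TATAAA or TTTATA), searched on both strands.
Odc1, chr12:17544623-17544872, plus strand: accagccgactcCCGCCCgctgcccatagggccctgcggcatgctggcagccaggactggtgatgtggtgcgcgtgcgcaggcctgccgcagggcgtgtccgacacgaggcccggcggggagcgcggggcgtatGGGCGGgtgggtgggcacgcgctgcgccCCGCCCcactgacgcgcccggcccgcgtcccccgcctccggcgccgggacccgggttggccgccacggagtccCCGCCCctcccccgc
Amd1, chr10:40302189-40302438, minus strand: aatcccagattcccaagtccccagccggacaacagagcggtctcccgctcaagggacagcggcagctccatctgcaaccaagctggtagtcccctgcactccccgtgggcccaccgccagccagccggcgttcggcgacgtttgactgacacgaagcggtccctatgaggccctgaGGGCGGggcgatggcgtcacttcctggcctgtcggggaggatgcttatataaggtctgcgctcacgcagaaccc
Oaz1, chr10:80826406-80826655, plus strand: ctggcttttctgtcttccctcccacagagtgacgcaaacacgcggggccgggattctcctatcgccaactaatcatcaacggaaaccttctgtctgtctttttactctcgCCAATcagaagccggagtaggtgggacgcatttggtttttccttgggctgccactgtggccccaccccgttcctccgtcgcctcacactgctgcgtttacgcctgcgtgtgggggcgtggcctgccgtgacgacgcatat
Sms, chrX:157492288-157492537, minus strand: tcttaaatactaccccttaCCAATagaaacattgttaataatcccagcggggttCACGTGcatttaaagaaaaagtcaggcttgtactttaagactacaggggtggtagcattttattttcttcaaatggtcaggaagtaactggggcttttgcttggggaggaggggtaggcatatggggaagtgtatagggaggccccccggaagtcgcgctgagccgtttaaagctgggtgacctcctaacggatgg

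An E-box was present in 1 of the 10 member windows, the Sms one, and in 6.02% of all 32851 such windows. GC boxes were present in 8 of the 10, against 32.7% of all windows, with 4 in the Odc1 window, whose GC content was 80.0% against a median of 52.4%. CCAAT boxes were present in 2 of the 10 (Sms and Oaz1) and 33.8% of all windows, and TATAAA in 0 of the 10 and 12.4%. Only the exact letters were searched, so the run tatataag near the end of the Amd1 window was not counted. The windows of Paox overlap each other, and those of Oaz2 and Paox start 8547 and at least 9858 bases from the gene starts in the files. A match is a run of letters and was not tested as a binding site, and bases outside the windows, introns among them, were not searched.

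The antizymes, the negative regulators of Odc1, were called lower at 24 h along with it. Oaz1 (chr10:80826656-80829290, plus strand) measured 303 and 387 TPM at 0 h, 173 and 164 at 24 h, 175 and 205 at 72 h, then 206 and 215 at 144 h in wild type. All 6 treated libraries lay below both untreated ones, and the share stayed between 48.9% and 61.1% of the untreated mean. Oaz1 was called lower in all 5 comparisons with 0 h on both scales, as Odc1 and Amd1 were on deposited TPM. A processed copy, Oaz1-ps, is 99.9% identical over 681 bases and was listed at 28.1 and 31.0 TPM at 0 h, and the sum fell by 1.39 at 24 h (adjusted p = 0.0062, limma).

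Oaz2 (chr9:65668001-65690300, plus strand) fell at 24 h, and its later shares lay between. It had 55.6 and 58.2 TPM at 0 h, 26.8 and 28.1 at 24 h, 44.4 and 51.1 at 72 h, then 50.7 and 48.5 at 144 h in wild type. The 24 h pair was the lowest of the 8 libraries, and all 4 later ones lay below the untreated pair. After spike-in normalization its mean at 144 h was 42.8% of that at 0 h and was called lower (−1.21, adjusted p = 0.0044, limma). The ratio of Oaz2 to Oaz1 was 0.184 and 0.151 at 0 h, 0.154 and 0.171 at 24 h, 0.253 and 0.249 at 72 h, then 0.246 and 0.226 at 144 h, so the later pairs lay above all 4 earlier values.

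Both antizyme messages carry a programmed frameshift site, at which ribosomes must shift by 1 base past a TGA stop codon to make the full protein, and polyamines favour the shift. The site is shown because TPM measures the transcript and says nothing of that step. The windows are from GENCODE transcripts, 5′ to 3′ on the coding strand, on chromosome 10 for Oaz1 and 9 for Oaz2, with the last codon before the shift and the stop codon in capitals.
Oaz1: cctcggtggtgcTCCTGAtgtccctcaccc
Oaz2: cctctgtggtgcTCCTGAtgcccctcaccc

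The 30-base windows of the 2 genes differed at 2 positions, both outside the capitals. The site was present in 2 of the 7 Oaz1 and 3 of the 7 Oaz2 transcripts of the annotation, and its stop codon was in frame with an upstream ATG in 1 transcript of each gene.

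Azin1, which protects ornithine decarboxylase from antizyme (chr15:38487427-38519266, minus strand), held its share. It had 59.9 and 70.8 TPM at 0 h, 69.4 and 69.2 at 24 h, 58.7 and 79.2 at 72 h, then 61.7 and 69.1 at 144 h in wild type. The range of each treated pair overlapped that of the untreated pair, and no comparison with 0 h was called on deposited TPM (changes of 0.09, 0.07 and 0.00). After spike-in normalization it fell by 1.01 at 144 h (adjusted p = 0.014, limma), with a median of −0.83 for all genes. That call was lost without the second library at 0 h or either library at 144 h. The ratio of Azin1 to Oaz1 was 0.198 and 0.183 at 0 h, 0.401 and 0.421 at 24 h, 0.335 and 0.386 at 72 h, then 0.299 and 0.321 at 144 h, so every treated library lay above the untreated pair. In DKO cells the ratio was 0.173 and 0.233 at 0 h, 0.419 and 0.365 at 24 h, then 0.459 and 0.449 at 72 h, again without overlap with the untreated pair. The ratio of Odc1 to Oaz1 shifted less: it was 1.89 and 1.59 at 0 h, 1.93 and 1.84 at 24 h, 2.66 and 2.19 at 72 h, then 2.30 and 2.13 at 144 h in wild type. The ratios were chosen after the values were seen and carry no test.

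**Figure D4:**
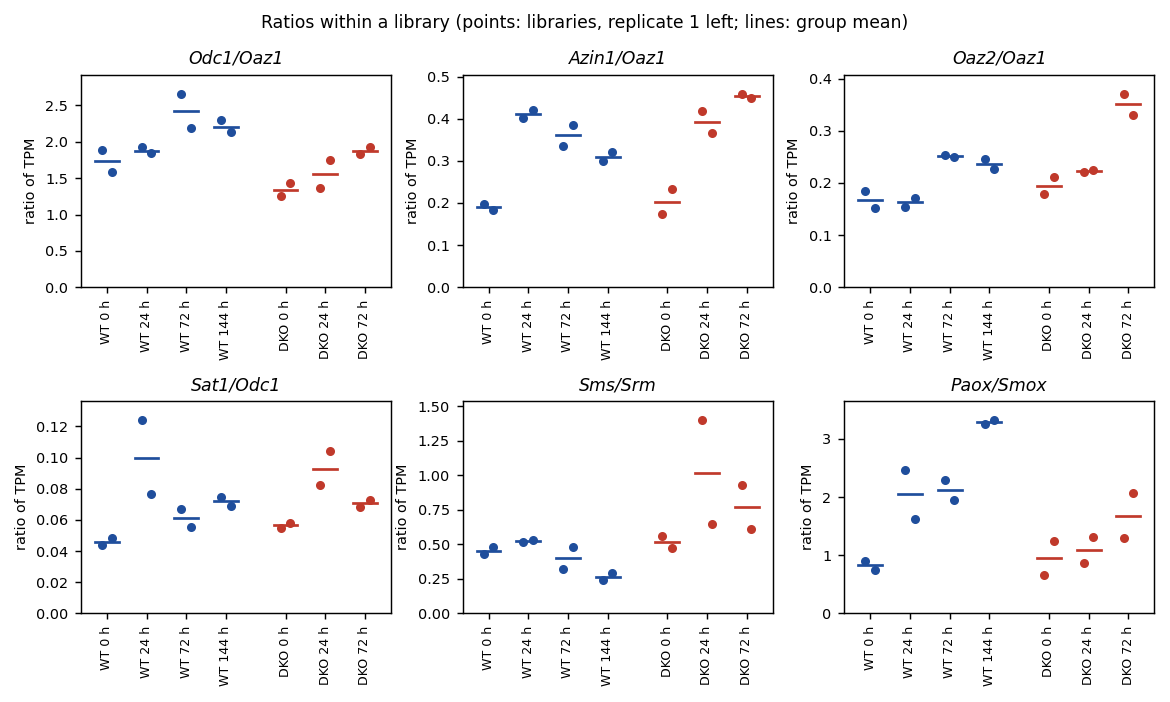
Ratios of TPM between pairs of members within a library (y axes, linear from 0), from which any library factor cancels, in the 14 libraries by genotype and hours of mTORi (x axis, blue wild type, red DKO); points are libraries and lines the mean of 2. Azin1/Oaz1 lies above its untreated pair in every treated library, from 0.299 to 0.459, and Sms/Srm is lowest at 144 h in wild type.

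The catabolic genes did not move together. Sat1, the acetyltransferase that polyamines themselves induce (chrX:155213132-155216449, minus strand), had 25.3 and 29.6 TPM at 0 h, 41.4 and 23.1 at 24 h, 31.2 and 24.8 at 72 h, then 35.5 and 31.5 at 144 h in wild type. The 2 libraries at 24 h lay on either side of the untreated pair, and its sole call in wild type was the fall of 0.72 at 144 h on the spike-in scale. That fall was smaller than the median of all genes (−0.83), and the call was lost in 7 of the 14 fits that left out 1 library. Smox, which oxidizes spermine (chr2:131491496-131525922, plus strand), went from 5.55 and 6.72 TPM to 5.35 and 5.43 at 24 h, 3.24 and 3.85 at 72 h, then 2.96 and 2.93 at 144 h. Its 4 libraries at 72 and 144 h lay below the other 4, with changes on deposited TPM of −0.65 (adjusted p = 0.018, limma) and −0.85 (adjusted p = 0.0047).

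Paox, the peroxisomal oxidase of acetylated polyamines (chr7:140115799-140137224, plus strand), was the member that rose as a share. It had 5.01 and 5.02 TPM at 0 h, 13.2 and 8.87 at 24 h, 7.45 and 7.51 at 72 h, then 9.65 and 9.74 at 144 h in wild type. All treated libraries lay above the untreated pair. On deposited TPM the change at 24 h was 0.98 ± 0.21 (SE, adjusted p = 0.0062, limma) where 15.8% of all genes were called higher, and this call was lost without the first library at 24 h. The call at 144 h was lost without any one of the 4 libraries it compared. After spike-in normalization the changes were 0.69, 0.14 and −0.07 at 24, 72 and 144 h and were not called. The Paox gene overlaps Echs1 on the opposite strand by 678 bases, and the quantification parameters the study lists name no strand option, so reads of Echs1 may be included. Echs1 had 39.6 and 41.7 TPM at 0 h and 37.8 and 39.7 at 24 h, a change of −0.07 (adjusted p = 0.63, limma, deposited TPM).

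The second question was whether DKO cells respond in the same way. At 24 h the 5 members called lower in DKO cells were again Amd1, Oaz1, Srm, Oaz2 and Odc1, by 1.63, 1.60, 1.42, 1.40 and 1.39 on the log2 scale of spike-in normalized TPM (adjusted p from 0.0017 to 0.0049, limma). In this comparison 18.7% of all genes were called lower, and the medians were −1.03 for the members and −0.49 for all genes. On deposited TPM the same 5 were called, where 13.3% of all genes were, and all 5 calls held with any 1 of the 14 libraries left out. With the replicate block within the genotype Azin1 (adjusted p = 0.036) and Sat1 (0.019) were called lower as well, which made 7 against 38.1% of all genes. Without the first DKO library at 24 h 8 were called lower on the spike-in scale, and without the second, or without the first at 0 h, 4 were, with Oaz2 lost.

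At 72 h in DKO cells Oaz1 alone was called lower on the spike-in scale (−1.22 ± 0.30, adjusted p = 0.03, limma), where 2.95% of all genes were, and the medians were −0.49 and −0.12. That call was lost without either DKO library at 0 h or without the second at 72 h, and 4 members were called without either DKO library at 24 h. On deposited TPM Oaz1 (−0.91), Srm (−0.55), Amd1 (−0.49) and Odc1 (−0.42) were called lower, against 9.06% of all genes. Of these 4 calls 1 remained without the first DKO library at 72 h and 2 without the second at 0 h. The replicate block gave the same 4 genes on the spike-in scale, against 13.2% of all genes.

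In the DKO libraries Odc1 had 479 and 492 TPM at 0 h, 260 and 289 at 24 h, then 353 and 371 at 72 h. Amd1 had 119 and 124 TPM, then 64.3 and 52.6, then 83.8 and 89.1. For both genes the 24 h pair was lowest and the 72 h pair lay between it and the untreated one. Srm had 228 and 251 TPM, then 127 and 138, then 146 and 182. Oaz1 had 382 and 344 TPM, then 190 and 166, then 193 and 192, so it stayed at 52.9% of the untreated mean at 72 h. Oaz2 had 68.5 and 72.9 TPM, then 41.9 and 37.2, then 71.6 and 63.5, and its last pair overlapped the untreated one.

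Sms had no called change in DKO cells on either scale with all libraries, but without the first DKO library at 24 h it was called lower at 24 h and higher from 24 to 72 h on the spike-in scale. It had 128 and 120 TPM at 0 h, 178 and 89.0 at 24 h, then 136 and 112 at 72 h in DKO cells. The libraries at 24 h stood far apart and enclosed the untreated pair, so no direction could be read at that time. At 72 h both DKO libraries (136 and 112 TPM) lay above both wild-type ones (68.5 and 83.1 TPM), a difference of 0.70 ± 0.27 (SE) on deposited TPM that was not called (adjusted p = 0.16, limma). For Sms the DKO response minus the wild-type response was 0.55 ± 0.57 at 24 h and 0.85 ± 0.57 at 72 h on the spike-in scale, with an adjusted p of 1 for both.

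Among the remaining members in DKO cells, Azin1 had 66.1 and 80.1 TPM at 0 h, 79.5 and 60.4 at 24 h, then 88.4 and 86.2 at 72 h. Sat1 lay between 21.4 and 29.9 TPM in all 6 DKO libraries. Smox had 7.78 and 6.25 TPM, then 9.64 and 7.69, then 6.25 and 5.03, and Paox 5.13 and 7.79, then 8.30 and 10.2, then 8.12 and 10.4. None of these 4 genes was called against 0 h in DKO cells on deposited TPM. With the replicate block on that scale Paox was called higher at 24 and 72 h (0.47 at both, adjusted p = 0.044 and 0.041, limma).

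No member was called between genotypes on the spike-in scale. The differences between DKO and wild type lay between 0.00 and 0.60 untreated, between −0.19 and 0.82 after 24 h, and between 0.08 and 1.12 after 72 h, and 0 of 10 were called at each time, where 0.0439%, 0.0439% and 0.329% of all genes were (limma). At an unadjusted p under 0.05 there were 0, 0 and 5 members, but here and below the share of all genes at that threshold was not computed. The median difference at 72 h was 0.63 for the members and 0.49 for all genes. Without the second DKO library at 24 h, the Sms difference of that time rests on 1 DKO library (178 TPM), and its spread comes from the other groups. Sms and Oaz2 were called higher in DKO cells at 72 h without either DKO library at 24 h. On deposited TPM Oaz2 was called higher in DKO cells at 24 h (0.51 ± 0.10, adjusted p = 0.038) and at 72 h (0.49 ± 0.10, adjusted p = 0.03), where 1.37% and 4.01% of all genes were called in either direction. At 0 h its values of 68.5 and 72.9 TPM in DKO cells also lay above the 55.6 and 58.2 TPM of wild type, but 0 members were called, against 0.598% of all genes. Odc1 was lower in both DKO libraries than in both wild-type ones at 0, 24 and 72 h on deposited TPM, at 81.7%, 86.4% and 79.1% of the wild-type mean, but was not called (−0.29, −0.21 and −0.34, adjusted p = 0.17, 0.30 and 0.062, limma). After spike-in normalization its groups overlapped at all 3 times (0.00, −0.12 and 0.08). The Oaz2 call at 24 h was lost in 12 of the 14 fits without 1 library and that at 72 h in 6 of 14.

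The difference of the responses, DKO minus wild type, was tested for each member. It ran from −0.71 (Paox) to 0.55 (Sms) at 24 h and from −0.01 (Sat1) to 0.85 (Sms) at 72 h on the spike-in scale, and 0 of 10 were called, where 0.00548% and 0.0% of all genes were (limma). On deposited TPM 0 of 10 members and 0.0% of all genes were called at both times. At an unadjusted p under 0.05 there were 0 members on either scale. With the replicate block 0 were called too, and those at an unadjusted p under 0.05 were Paox at 24 h and Sms at 72 h on the spike-in scale, and Paox, Smox and Sms at 24 h and Sms at 72 h on deposited TPM (smallest adjusted p = 0.70, limma). The standard errors of these differences ran from 0.38 to 0.57 on the spike-in scale, so differences of that size could not be detected, and the missing calls do not show that the genotypes respond alike.

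The comparisons with 0 h share their untreated libraries, so the steps between later times were fitted as well, after the values had been seen. From 24 to 72 h Oaz2, Amd1 and Odc1 rose on deposited TPM, by 0.78, 0.57 and 0.53 in wild type and by 0.76, 0.56 and 0.40 in DKO cells. These were 3 of 10 in each genotype, where 5.33% and 4.47% of all genes were called higher (limma, adjusted p from 0.0026 to 0.029). In wild type 1 of the 3 calls (Oaz2) remained without the second library at 24 h or the first at 72 h, and in DKO cells 0 remained without the second library at 72 h. On the spike-in scale 0 members were called in either step, where 0.987% and 1.42% of all genes were, with 1 and 3 members at an unadjusted p under 0.05. There the replicate block gave the same 3 genes in DKO cells, against 12.7% of all genes, and 7 were called without the first DKO library at 24 h. From 72 to 144 h in wild type all 10 members had a negative change on the spike-in scale (−0.21 to −0.89), at the median of all genes (−0.50 for both), and 0 were called where 0.395% were, while 2 had an unadjusted p under 0.05. Setting the replicate block made Sms and Smox pass as lower in that step (adjusted p = 0.03 and 0.048), where 18.5% of all genes were. On deposited TPM 3 of the 10 were negative in that step (−0.30 to 0.34). The medians were 0.10 for the members and 0.02 for all genes, and the smallest adjusted p was 0.59 (limma).

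Genes around the pathway were taken from lists of textbook neighbours. Their counts of called genes on the spike-in scale are to be read against 8.73%, 7.6% and 50.5% of all genes called lower at 24, 72 and 144 h in wild type and 18.7% and 2.95% at 24 and 72 h in DKO cells. For counts with the replicate block those shares were 25.7%, 25.4% and 66.3%, and 38.1% and 13.2%. For counts on deposited TPM they were 14.1%, 11.4% and 11.7%, and 13.3% and 9.06%. Calls higher on deposited TPM stand against 15.8% and 15.6% of all genes at 24 and 144 h in wild type. No such share was computed at 72 h or in DKO cells. Arginine and ornithine supply had 7 of 9 genes tested, and 3, 5 and 6 of them were called lower at 24, 72 and 144 h in wild type and 5 and 3 at 24 and 72 h in DKO cells on the spike-in scale (limma), with 0 called higher. Slc7a1, the cationic amino acid transporter, went from 62.1 and 57.9 TPM to 24.6 and 27.2 at 144 h, a fall of 2.20 on the spike-in scale and 1.18 on deposited TPM. Aldh18a1, which makes the ornithine precursor from glutamate, went from 38.0 and 42.0 to 18.9 and 17.4 TPM, and in DKO cells from 57.1 and 44.5 to 12.4 and 11.3 TPM at 24 h. Both genes were called lower in all 5 comparisons on both scales. With the replicate block the counts of the list were 5, 6 and 6 in wild type and 7 and 5 in DKO cells. On deposited TPM they were 4, 5 and 4, and 5 and 5. Between genotypes at 72 h Asl, which makes arginine, and Oat, ornithine aminotransferase, were called higher in DKO cells on deposited TPM (0.44 and 0.56, adjusted p = 0.048 and 0.044, limma).

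S-adenosylmethionine supply and methionine salvage, which recycle the by-product of spermidine and spermine synthesis, had all 7 genes tested. Of these 4, 2 and 6 were called lower in wild type at 24, 72 and 144 h and 4 and 2 in DKO cells on the spike-in scale, with 0 higher, and 5, 4 and 6, and 5 and 3, with the replicate block. On deposited TPM 4, 3 and 4, and 3 and 3, were called lower, while Mat2b, a regulatory subunit of methionine adenosyltransferase, was called higher at all 3 times in wild type (0.28, 0.42 and 0.53) and at 72 h in DKO cells (0.48). The largest falls were those of Mtap, the phosphorylase that splits the by-product, from 60.9 and 62.6 TPM to 25.7 and 27.5 TPM at 144 h, and of Adi1, a later salvage enzyme, from 59.1 and 76.0 to 35.1 and 39.4 TPM. Mtap and Adi1 were called lower in all 5 comparisons on both scales, and between genotypes at 72 h Mtap was called higher in the DKO line on deposited TPM (0.48, adjusted p = 0.03, limma).

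The eIF5A group, in which spermidine is the donor for the hypusine modification, had 4 genes tested, of which 2, 1 and 3 were called lower in wild type and 3 and 0 in DKO cells on the spike-in scale. The replicate block gave 3, 3 and 4, and 4 and 2, and deposited TPM 2, 2 and 0, and 3 and 2. Eif5a itself had 1233 and 1261 TPM at 0 h and 693 and 716 at 24 h in wild type, with 982 and 987 at 144 h. Dhps, which transfers the aminobutyl group from spermidine, had 44.4 and 54.0 TPM, then 26.3 and 28.2 at 24 h and 41.6 and 35.7 at 144 h. Polyamine transport had 5 of 8 genes tested, with 2, 2 and 3 called lower in wild type and 2 and 1 in DKO cells on the spike-in scale, and 3, 2 and 5, and 4 and 2, with the replicate block, where the 5 of 5 at 144 h stand against 66.3% of all genes. On deposited TPM 3, 1 and 2, and 1 and 2, were called lower, while Atp13a2, the lysosomal polyamine exporter, was called higher at 24 and 72 h in wild type (0.47 and 0.44) and at 72 h in DKO cells (0.52). Slc3a2, the heavy chain of amino acid transporters that has been linked to polyamine export, fell in all 5 comparisons (by 0.87 to 1.57 on the spike-in scale), and Slc18b1, a vesicular polyamine transporter, fell by 2.14 at 144 h. Of the relatives of the members 4 of 6 were tested. Agmat, which makes putrescine from agmatine, passed the filter through the untreated DKO pair alone (8.48 and 2.68 spike-in normalized TPM, against at most 1.36 in any other library), so its calls are not counted. Amd2 was called lower at 24 and 144 h in wild type and at 24 h in DKO cells on the spike-in scale, with the replicate block also at 72 h in both genotypes. With the block Azin2, a second antizyme inhibitor, was called higher at 24 h in wild type, where 4.48% of all genes were, and lower at 144 h. On deposited TPM Amd2 was called lower at all 3 times in wild type and at 24 h in DKO cells. Azin2 was called higher there at 24 h in both genotypes (1.1 and 0.82, adjusted p = 0.0014 and 0.0075, limma), from 4.86 and 6.79 to 12.8 and 14.2 TPM in wild type.

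Of the 3 MYC genes none was called in wild type on either scale, but with the replicate block Mycn was called lower at 24 h (adjusted p = 0.018, limma) and Mycl at 72 h (0.014). Mycn had 79.0 and 120 TPM at 0 h, 63.2 and 79.0 at 24 h, 85.4 and 78.5 at 72 h, then 147 and 136 at 144 h. Myc had 76.3 and 72.5 TPM, then 97.8 and 65.6, 169 and 104, and 131 and 126. Mycl had 7.60 and 6.0, then 7.30 and 6.92, 4.39 and 5.34, and 10.2 and 9.16. In DKO cells Mycn fell by 1.28 at 24 h on the spike-in scale (adjusted p = 0.032, limma) and was not called on deposited TPM (−0.71, adjusted p = 0.087). On the spike-in scale the replicate block called Mycl there too (0.011), and Mycn at 72 h (0.014). On deposited TPM Mycn was lower in DKO than in wild-type cells at 72 h (−1.29, adjusted p = 0.034).

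The genes whose profile was most like that of Odc1 over the 14 libraries, among the 8768 genes that averaged 10 TPM or more, were Sf3b6 (Pearson r = 0.979 of log2 deposited TPM), Ampd2 (0.974) and Hmga1b (0.962). For Sat1 they were Arf6 (0.806), Plaur (0.801) and Gnai2 (0.792). The libraries share genotypes and times, so these values describe likeness of the pattern over the libraries and carry no test.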

How the data were processed

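Total RNA of 14 libraries in 7 groups was sequenced. The deposited values are TPM per gene, which the authors made with cutadapt 2.4, STAR 2.7.3a and StringTie 2.0 according to the submitters' processing notes, on mm10 with a GENCODE annotation. TPM keeps no read counts, so read depth was not used here and no counting intervals were computed. The quantification parameters the study lists name no strand option.

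TPM were summed per gene identifier, which mattered for the 2 to 7 identifiers per library with more than 1 entry. The spike-in factor of a library was the median ratio of the study's supplementary spike-in normalized values (1993 entries used) to the deposited TPM, over genes of at least 1 TPM. Only the factor was taken from there. Of 38890 genes above 0, the 18232 averaging 1 TPM or more after spike-in normalization were tested on log2(TPM + 1), a scale that understates changes of low genes, with limma 3.58.1 (R 4.3.3) over all 14 libraries, 1 mean per group, and Benjamini-Hochberg adjustment at 0.05. The analysis was tested on simulated data. The design assumed this scale, and deposited TPM, a median-centred scale, a pseudocount of 0.1, no filter, the replicate block, 1 genotype alone, summed gene copies and each library left out were the alternatives. The block on deposited TPM, the sum of Sms with its copy, the left-out libraries on deposited TPM, the steps between treated times, the ratios within libraries and the GC, CCAAT and TATA motifs were chosen after seeing the data.

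The study states that the time points of a replicate were processed in parallel. Deviations of same-numbered libraries from their group means correlated at 0.0622 to 0.398 in wild type (5 of 6 pairs over 0.1) and 0.222 to 0.341 in DKO cells (3 of 3), but at −0.501 to 0.116 across genotypes (10 of 12 below 0), so the block was set within each genotype. The p-values measure the spread between these samples, which may be technical.

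All 10 members were named. Of each wider list, the 2 genes with the largest change at 144 h and any gene called between genotypes on either scale were named, and the 3 genes most like Odc1 and Sat1. Mat2b, Atp13a2, Azin2 and Myc were named outside this rule, with their values known. The members and lists were chosen with earlier results of these data known. Protein identities were not analysed here.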

Additional observations from a re-analysis of the deposited data

How the results depend on the processing

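Changes below are log2 values, and counts are members of 10. For median centring, a changed filter or pseudocount, 1 genotype alone or a left-out library, the share of all genes called was not computed. Nor was it for the block on deposited TPM or across all libraries. Member counts from those fits therefore cannot be read against all genes. Where it was computed, the share moved with the setting: at 72 h in wild type 25.4% of all genes were called lower with the block, against 7.6% without it. Relative to deposited TPM, the spike-in scale moved the median of all genes, at 144 h from 0.05 to −0.83, and some values changed sign. In each pair below the spike-in value comes first and the deposited TPM value second. Azin1 turned from −0.28, −0.36 and −0.04 (wild type 24 and 72 h, DKO 72 h) to 0.09, 0.07 and 0.26. Sat1 turned from −0.19, −0.39 and −0.72 (wild type 24, 72 and 144 h) to 0.17, 0.02 and 0.28. Paox turned from −0.07 (wild type 144 h) and −0.03 (DKO 24 h) to 0.83 and 0.47. In DKO cells at 24 h Smox turned from −0.25 to 0.27 and Sms from −0.54 to 0.02. Between genotypes Sms at 0 h turned from 0.27 to −0.02 and Odc1 at 72 h from 0.08 to −0.34. The replicate block on deposited TPM gave the same values within genotypes. Median centring gave 0.05 (Azin1, DKO 72 h), 0.07 and 0.11 (Sat1, 24 and 144 h), 0.76 and 0.43 (Paox), 0.21 (Smox), −0.04 (Sms) and −0.43 (Odc1).

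At 24 h in wild type, 3 were called lower without the filter on low values, in place of 5. At 72 h the 3 became 5 on deposited TPM, 7 with median centring, with the replicate block or in wild type alone, 6 with the block on deposited TPM and 0 without the filter. At 144 h the 9 became 5 on deposited TPM with or without the block. In DKO cells at 72 h the 1 became 4 on deposited TPM, with the replicate block or with both, 6 with median centring, and 0 without the filter or in DKO cells alone. From 72 to 144 h the 0 became 2 with the block or in wild type alone. From 24 to 72 h the 0 called lower became 1 in each genotype with median centring or with the block on deposited TPM.

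Of members called higher, the 0 became 1 (Paox) at 24 h in wild type on deposited TPM, with median centring, with the replicate block, in wild type alone and with the block on deposited TPM. It became 1 at 144 h on deposited TPM with or without the block and with median centring, and 1 at 72 h in either genotype and at 24 h in DKO cells with the block on deposited TPM. From 24 to 72 h it became 3 in wild type on deposited TPM, with or without the block, and with median centring, and in DKO cells 3 on deposited TPM, with the replicate block and with both, and 2 with median centring. Between genotypes it became 1 at 24 h on deposited TPM and with median centring, and 1 at 72 h on deposited TPM. The replicate block across all libraries, with a number shared between genotypes, gave the same counts in the comparisons with 0 h at 24 and 72 h. The cause of these changes was not tested.

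With 1 library left out the count called lower ranged from 0 to 6 (wild type 24 h), 0 to 6 (72 h), 7 to 9 (144 h), 4 to 8 (DKO 24 h) and 0 to 4 (DKO 72 h), and the count called higher from 0 to 7 (DKO, 72 against 24 h), 0 to 1 and 0 to 2 (genotypes at 24 and 72 h). On deposited TPM the count called lower ranged from 2 to 6 (wild type 72 h), 2 to 5 (144 h) and 1 to 4 (DKO 72 h), and the count called higher from 0 to 1 (wild type 24 h, 144 h and genotypes at 24 h), 0 to 2 (genotypes at 72 h), 1 to 3 (wild type, 72 against 24 h) and 0 to 3 (DKO). Single values ranged from −0.33 to 0.25 (Azin1, DKO 72 h), −0.23 to 0.17 (Paox, DKO 24 h), −0.42 to 0.04 (Sat1, wild type 24 h), −0.74 to 0.24 (Smox, DKO 24 h), −1.4 to 0.31 and −0.72 to 0.11 (Sms, DKO 24 and 72 h) −0.03 to 1.68 (Sms between genotypes at 24 h), and −0.4 to 0.17 and −0.16 to 0.32 (Odc1 between genotypes at 24 and 72 h).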

Other observations

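All 14 spike-in factors equalled 76 divided by a whole number from 27 to 76, and both untreated wild-type libraries had the same factor, 2.1111. What the whole numbers stand for is not given in the sources used here.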
